A study of Mus musculus with 4 samples.

Results

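The genes described here are 10 transcription factors of the oligodendrocyte lineage, the cells that make myelin in the brain. They were chosen by name, and a probe set was taken where the platform annotation gave it exactly 1 gene symbol and that symbol was Sox10, Sox8, Olig1, Olig2, Nkx2-2, Nkx6-2, Myrf, Tcf7l2, Zfp488 or Zfp536. This gave 15 probe sets of the 45037 tested, and 9 genes of the 18193 named by a single symbol. The expression of Zfp488 was not analysed here. A probe set is a group of short probes that together read 1 transcript or a few related ones. Expression was compared between groups for each probe set and for each gene.

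Prefrontal cortex of mice that had met repeated social threat was set against that of control mice on Affymetrix MOE430 2.0 arrays. Each group was represented by 2 pools of total RNA, and each pool held RNA of 5 mice, so that 4 arrays stand for 20 animals. The environment of the threat mice is labelled HighThreat and that of the controls LowThreat. The sources used here do not give strain, sex, age, the length of exposure or the housing of the animals, and they name no allele or agent for either group.

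Oligodendrocytes arise from precursor cells, and the factors act at different steps of that path. Olig2 and Sox10 mark the whole lineage, Nkx2-2 and Tcf7l2 act around the time when precursors leave the cycle and differentiate, and Myrf is needed in differentiating and mature cells to switch on and maintain the genes of myelin. In the adult cortex, transcripts of Olig1, Olig2, Sox10 and Myrf come mainly from precursors and oligodendrocytes, whereas Sox8 is also made by astrocytes and Tcf7l2 by neurons of the thalamus.

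The deposited values were log2 expression per probe set. The 4 arrays correlated between 0.994 and 0.996 across probe sets. As a guide to background, control probe sets for Bacillus transcripts, which match no mouse gene, reached at most 4.25, and the median of all probe sets was 5.56. All 15 probe sets of the factors lay above 4.25 on every array, and 8 of them averaged more than 5.56 (called bright below). The general neuronal gene Snap25 and the cortical excitatory gene Slc17a7 stood above 99.9% and 95.5% of all probe sets by mean. In pooled tissue, fewer cells of a type and less RNA per cell cannot be told apart. Probe sets differ in how strongly they bind, so a rank or brightness among probe sets is used here only as a rough guide to detection and to choose a probe set for each gene. Pools are compared within a probe set.

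Myrf, Sox10 and Nkx6-2 were lower in both threat pools than in both control pools, and Olig1 and Olig2 had lower means with overlapping pools. Sox8, Nkx2-2, Tcf7l2 and Zfp536 had differences of less than 0.1 on the log2 scale. No member passed limma's test with Benjamini-Hochberg adjustment over all 45037 probe sets, and neither did any other probe set (0% called, smallest adjusted p = 0.278). At an unadjusted p under 0.05, 2 of the 15 member probe sets were lower and 0 higher in threat, where 5.73% of all probe sets were lower and 4.87% higher. In 4 of the 15 both threat pools lay below both control pools (lower without overlap), against 19.4% of all probe sets, and in 1 of the 15 both lay above (higher without overlap), against 23.9%. The brightest probe set of a gene stands for it below unless another is named. On that basis 7 of 9 genes lay below 0, against 44.3% of all genes. Among the 9 genes 3 were lower without overlap, against 18.8% of all genes, and 0 were higher without overlap, against 26.2%. The median difference of the 9 genes was -0.20, against 0.02 for all genes. No member differed by 1.5-fold or more, a size at which 0.715% of all genes were lower and 0.066% higher without overlap.

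**Figure D1:**
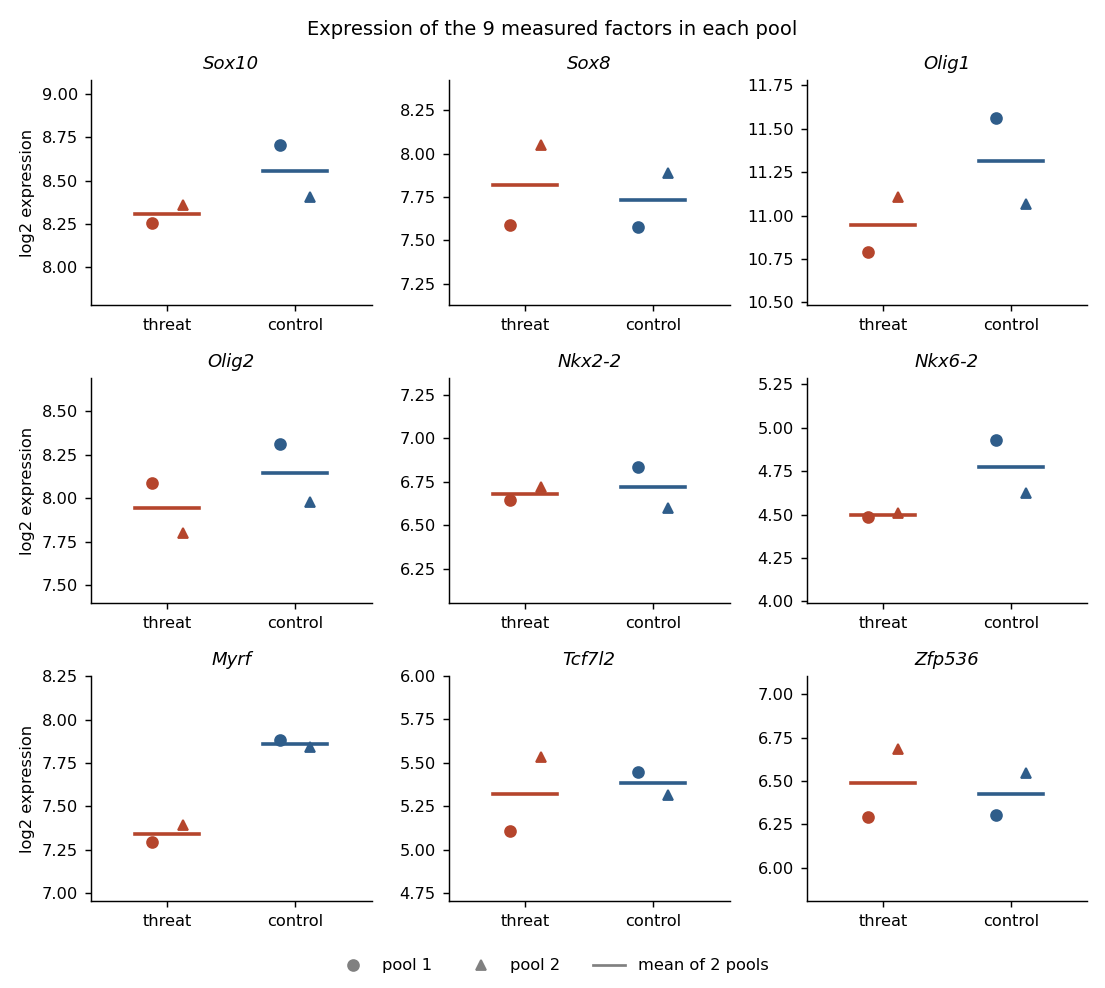
Log2 expression (vertical axis, with the same span of 1.3 units in each panel) of the 9 measured factors in the threat and the control pools, each read by the brightest of its probe sets. Circles are pool 1, triangles pool 2 and bars the mean of the 2 pools. The Myrf pools lie tightly together within each group and apart between groups, with 7.30 and 7.39 in threat and 7.88 and 7.84 in control.

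Myrf encodes a membrane-bound protein that is cleaved to release a DNA-binding part, which activates myelin genes. Its 1 probe set measured 7.30 and 7.39 in the threat pools, against 7.88 and 7.84 in the control pools. The groups did not overlap, and the gap between them was several times the gap within either. The threat pools averaged 7.34 ± 0.07 and the control pools 7.86 ± 0.03 (SD, n = 2 each). The log2 difference was -0.52 ± 0.09 (SE), which is 1.43-fold lower in threat. The SE given after a difference is that of limma's fit, which also draws on the spread of all probe sets. The 95% interval in limma's fit ran from -0.75 to -0.29, with an unadjusted p of 0.00185 and an adjusted p of 0.413. Of the 18193 genes, 1.2% had a lower difference. Leaving out 1 pool at a time gave between -0.57 and -0.47. Myrf was the single member gene at an unadjusted p under 0.05, where 5.76% of all genes were lower and 4.9% higher in threat.

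Sox10, an HMG-box factor of the SoxE group that is present in the lineage from precursor to myelinating cell and acts with Myrf on myelin genes, was read by 3 probe sets. The brightest, 1451689_a_at, measured 8.26 and 8.36 in the threat pools, against 8.71 and 8.40 in the control pools. The groups did not overlap, but threat pool 2 and control pool 2 lay only 0.04 apart. The difference was -0.25 ± 0.13 (1.19-fold lower, limma adjusted p = 0.524), and it came to -0.10 without control pool 1 and to -0.40 without control pool 2. A second bright probe set, 1424985_a_at, measured 6.66 and 6.47 in threat and 6.94 and 6.86 in control. It too was lower without overlap, with a difference of -0.33 ± 0.11, a 95% interval from -0.60 to -0.07 and a limma adjusted p of 0.444. The third, 1425369_a_at, was not bright and overlapped, with 5.15 and 4.89 in threat and 5.18 and 5.08 in control. The 3 probe sets thus gave differences of -0.25, -0.33 and -0.11, all on the same side of 0.

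Sox8, the relative of Sox10 that partly covers for it in oligodendrocytes of mice, did not share that direction. It measured 7.59 and 8.05 in the threat pools, against 7.58 and 7.89 in the control pools. The 2 threat pools enclosed control pool 2, and the gap of 0.46 between them was larger than the difference of 0.09 ± 0.19 between groups. Its 95% interval ran from -0.39 to 0.56, so that a difference as large as that of Sox10 in either direction lies within it. The sign turned to -0.07 without control pool 1 and to -0.15 without threat pool 2.

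Olig1 and Olig2 are neighbouring genes for basic helix-loop-helix factors. Olig2 specifies the lineage, and Olig1 acts more in maturation and repair. Olig1 measured 10.79 and 11.11 in the threat pools, against 11.56 and 11.07 in the control pools. Threat pool 2 lay just above control pool 2, and control pool 1 stood above the other 3 pools. The difference was -0.37 ± 0.20 (1.29-fold lower, 95% interval -0.86 to 0.12, limma adjusted p = 0.529). It came to -0.12 without control pool 1, -0.62 without control pool 2 and -0.21 without threat pool 1. Olig2 measured 8.09 and 7.80 in the threat pools, against 8.31 and 7.98 in the control pools. Threat pool 1 lay 0.23 below control pool 1 but 0.11 above control pool 2. Threat pool 2 lay below control pools 1 and 2, by 0.52 and 0.18. The difference was -0.20 ± 0.16 with a 95% interval from -0.60 to 0.19, and it shrank to -0.04 without control pool 1 and to -0.06 without threat pool 2. Without threat pool 1 it was -0.35, and without control pool 2 it was -0.37.

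The 2 homeodomain factors stood at different places. Nkx6-2, which is kept on in mature oligodendrocytes and bears on the structure of myelin and paranodes, measured 4.49 and 4.51 in the threat pools, against 4.93 and 4.62 in the control pools. The groups did not overlap, but all 4 values lay in the lower part of the scale, not far above the Bacillus controls. The difference was -0.28 ± 0.13 (1.21-fold lower, limma adjusted p = 0.499), and it came to -0.12 without control pool 1 and -0.43 without control pool 2. Nkx2-2, which is switched on as precursors begin to differentiate, measured 6.64 and 6.72 in the threat pools, against 6.84 and 6.60 in the control pools. The threat values fell between the 2 control values. Its difference was -0.04 ± 0.12 (95% interval -0.32 to 0.25), and it turned to 0.08 without control pool 1 and came to 0.0009 without threat pool 1.

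Tcf7l2 is an HMG-box effector of Wnt signalling that is found in oligodendrocytes at the start of myelination and was read by 4 probe sets, none of them bright. The brightest, 1429428_at, measured 5.11 and 5.53 in the threat pools, against 5.45 and 5.32 in the control pools. The 2 threat pools lay on either side of the control pools, and the difference was -0.06 ± 0.16. The difference turned to 0.01 without control pool 1 and to 0.15 without threat pool 1. The probe set 1429427_s_at, of a class that can match transcripts of several genes, measured 4.43 and 5.21 in the threat pools, against 5.17 and 5.20 in the control pools. Its difference of -0.37 ± 0.25 rested on threat pool 1 alone, since the other 3 pools lay within 0.04 of each other. The other 2 probe sets gave -0.11 and -0.04 with overlapping pools. Of 12 genes of thalamus and habenula, where neurons make Tcf7l2, 8 lay below 0 (44.3% of all genes) and 5 were lower without overlap (18.8% of all genes). Their median was -0.14, and leaving out a pool gave -0.01 (control pool 1), -0.25 (control pool 2), -0.13 (threat pool 1) and -0.04 (threat pool 2). Their mean level was 5.94 and 5.89 in the threat pools, against 6.23 and 5.90 in the control pools, and 3 of the 12 did not exceed the Bacillus maximum of 4.25 in any pool. Their part in the Tcf7l2 values was not tested.

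Zfp536, a zinc finger gene that is on in oligodendrocytes and also in neurons, was read by 2 probe sets. The brighter measured 6.29 and 6.68 in the threat pools, against 6.30 and 6.55 in the control pools, so that the control pools lay between the threat pools. Its difference was 0.06 ± 0.16 (95% interval -0.35 to 0.47), and it turned to -0.06 without control pool 1 and to -0.13 without threat pool 2. The other, 1458287_at, had 4.93 and 4.89 in the threat pools, against 4.71 in each control pool. It was the only one of the 15 member probe sets that was higher without overlap. Its 2 control values were identical to the last digit, as in 302 of the 45037 probe sets, which gives that group an SD of 0, and it was not bright. The difference of 0.20 ± 0.09 had a limma adjusted p of 0.495.

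**Figure D2:**
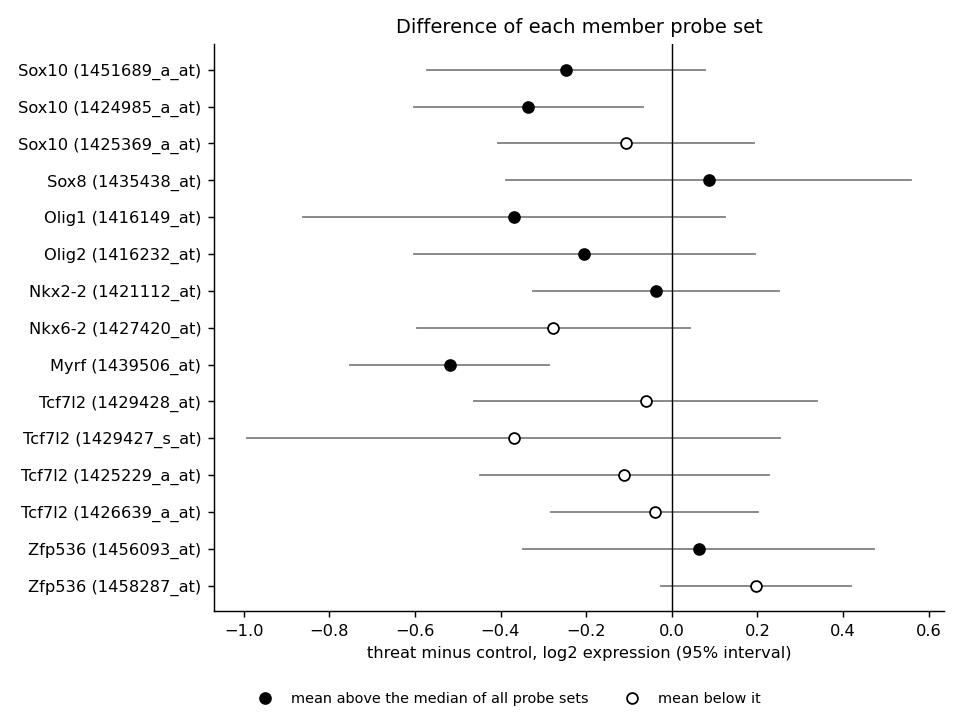
Threat minus control difference in log2 expression (horizontal axis) of each of the 15 member probe sets (vertical axis), with the 95% interval of limma's fit as a line. Filled points are bright probe sets, which average more than 5.56, and open points are dimmer ones. The intervals of Myrf (-0.75 to -0.29) and of the Sox10 probe set 1424985_a_at (-0.60 to -0.07) lie below 0, before any adjustment for the number of probe sets tested.

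The pools of a group differed from each other for most of the factors, and the difference between groups depended on which pools were set side by side. In 8 of the 9 genes the larger of the 2 gaps within a group was wider than the difference between groups, with Myrf the exception. Control pool 1 lay above control pool 2 in 7 of 9 genes, with a median gap of 0.24. Threat pool 1 lay below threat pool 2 in 8 of 9, with a median gap of -0.10. Threat pool 1 was below control pool 1 in 8 of 9 genes (median -0.34) and below control pool 2 in 7 of 9 (median -0.21). Threat pool 2 was below control pool 1 in 6 of 9 (median -0.35), whereas it was below control pool 2 in 4 of 9 (median 0.04). Myrf was lower in each of the 4 pairings of a threat and a control pool, by 0.45 to 0.59 on the log2 scale. The median difference of the 9 genes was -0.07 without control pool 1, -0.37 without control pool 2, -0.20 without threat pool 1 and -0.27 without threat pool 2. With a pool left out fewer pools have to be apart, and the share of all genes lower without overlap was larger. Of the 9 genes 6 were lower without overlap without control pool 2, against 34.8% of all genes, and 6 without threat pool 2, against 29.5%. The count was 3 without control pool 1, against 30.2%, and 4 without threat pool 1, against 32.5%.

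**Figure D3:**
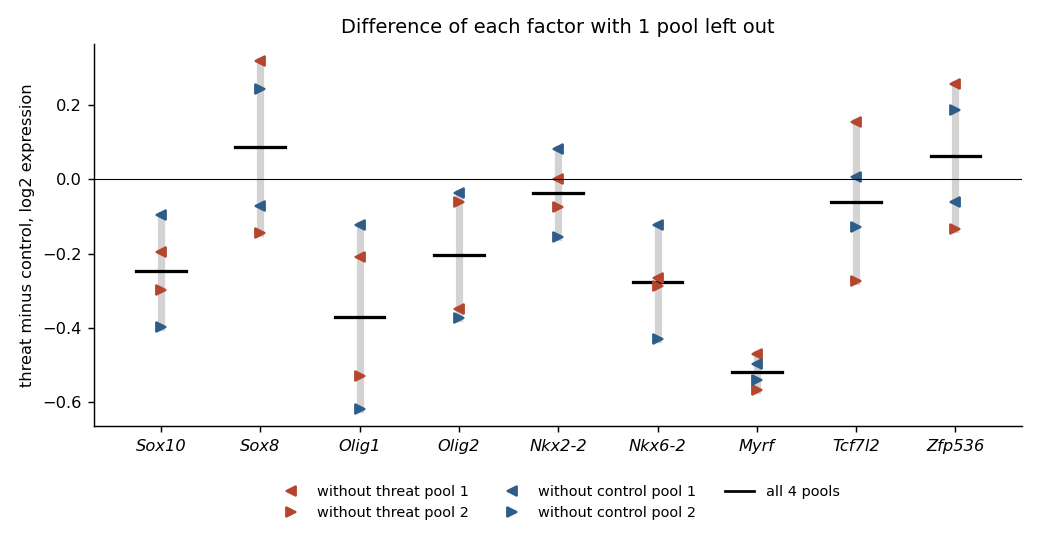
Threat minus control difference in log2 expression (vertical axis) of each factor with all 4 pools (black bar) and with 1 pool left out (triangles, red for a threat pool and blue for a control pool). Myrf keeps within -0.57 and -0.47, whereas Sox8, Nkx2-2, Tcf7l2 and Zfp536 lie on both sides of 0.

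Genes of myelin, many of which Myrf and Sox10 activate, had larger differences than the factors in these pools. The list held 21 genes, of which 18 were measured under a single symbol. All 18 lay below 0, with a median of -0.79 against -0.20 for the factors and 0.02 for all genes. Of these, 16 were lower without overlap (18.8% of all genes), and 14 were lower at an unadjusted p under 0.05 (5.76% of all genes), while none passed the adjusted test. The list was drawn up with an earlier result on myelin genes of these same arrays known, so its direction is not independent evidence, and the gap between the medians was not tested.

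Mobp, a small basic protein of compact myelin, measured 9.60 and 10.05 in threat and 11.41 and 10.85 in control. Cldn11, the claudin of myelin tight junctions, measured 8.20 and 8.53 in threat and 9.78 and 9.55 in control. Mal, a myelin proteolipid, differed by -1.16, and Ugt8a, which makes the galactolipid of myelin, by -1.13. These 4 had the largest differences of the list. Control pool 1 lay above control pool 2 in 18 of the 18 myelin genes, by a median of 0.49, while the control pools of Myrf were 0.04 apart. Against control pool 2 alone, the median of the myelin genes was still -0.67 for threat pool 1 and -0.49 for threat pool 2.

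Markers of oligodendrocyte precursors and of newly forming oligodendrocytes had a median between those of the factors (-0.20) and of all genes (0.02). Of 13 measured genes 7 lay below 0 (44.3% of all genes), and 4 were lower and 2 higher without overlap (18.8% and 26.2% of all genes). At an unadjusted p under 0.05, 2 were lower (Bcas1 and Enpp6) and 0 higher (5.76% and 4.9% of all genes). The median was -0.09, and it came to 0.05 without threat pool 1 and to -0.03 without control pool 2. Bcas1, which marks cells that are starting to myelinate, measured 9.75 and 9.88 in threat and 10.73 and 10.44 in control. Enpp6, a choline phosphodiesterase of newly forming oligodendrocytes, measured 4.78 and 4.84 in threat and 5.22 and 5.27 in control. Neither gene's groups overlapped, and the differences were -0.77 and -0.44. Vcan, a matrix protein, differed by 0.22 without overlap. Matn4, another matrix protein, differed by 0.28 with overlapping pools, and this came to 0.76 without control pool 1 and turned to -0.20 without control pool 2.

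**Figure D4:**
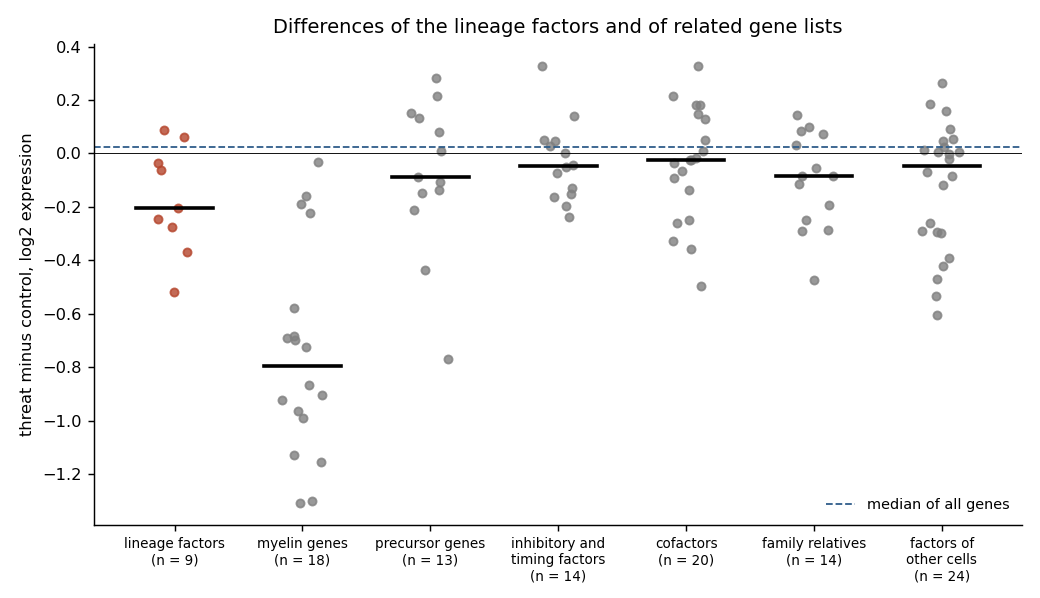
Threat minus control difference in log2 expression (vertical axis) of single genes (points), each read by the brightest of its probe sets, for the lineage factors and 6 related lists, with n genes measured. Black bars are list medians and the dashed line is the median of all genes. The lineage factors, at a median of -0.20, lie between the myelin genes at -0.79 and the other lists shown, whose medians run from -0.09 to -0.03. Of the lists not shown, endothelial (-0.29) and mural and meningeal markers (-0.46) had lower medians than the factors, and the rest had higher ones.

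The sequences upstream of some of these genes can be set beside the values, since factors of these families bind short motifs. RefSeq promoter windows (GRCm38.p6) were found for Olig2, Nkx2-2, Nkx6-2, Sox8, Tcf7l2, Zfp488 and Zfp536 among the 10 factors, 8 windows in all, and for 14 of the 21 myelin genes with 22 windows. The 250 bases before each start were searched on both strands. The SOX motif was taken as ACAAAG or ACAATG, which read CTTTGT or CATTGT on the other strand, and the MYRF motif as CTGGCAC or CTGGTAC, which read GTGCCAG or GTACCAG. No motif searched contains another, though matches can share letters at their ends, and a match is a match of letters only. The SOX motif was found in 3 of 8 windows of the factors (37.5%) and in 11 of 22 windows of myelin genes (50%), against 25.2% of all 32851 windows. The MYRF motif was found in 0 of 8 and in 4 of 22 (18.2%), against 5.93% of all windows. Another 4 motifs were searched in the same way. The OLIG E-box (CAGCTG or CATATG) was in 0 of 8 windows of the factors and 4 of 22 of myelin genes (18.2%), against 16.1% of all windows. The NKX2 motif (CACTTNA) was in 2 of 8 (25%) and 1 of 22 (4.55%), against 10.1%. The NKX6 motif (TAATTA) was in 1 of 8 (12.5%) and 0 of 22, against 4.84%. The TCF motif (CTTTGAT) was in 0 of 8 and 1 of 22 (4.55%), against 3.21%. The windows are few and some overlap, and no test was made.

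The sequences that follow are the windows of Cnp, Mag and Mog, the myelin genes with a MYRF motif match, that of Mobp, which has 6 SOX motif matches, and that of Olig2, 1 of the 2 factors with a SOX match. They were picked after the values were seen. Capitals mark the SOX and MYRF motif matches, and each runs 5′ to 3′ on the strand of the gene. The Cnp window is chr11:100574689-100574938 on the plus strand, with a SOX match from 167 to 162 and a MYRF match from 81 to 75 bases before the start. That of Mag is chr7:30914864-30915113 on the minus strand, with a SOX match from 126 to 121 and a MYRF match from 68 to 62. A second, overlapping Mag window holds the same matches. The Mog window is chr17:37023399-37023648 on the minus strand, with a MYRF match from 83 to 77. Mobp is shown over chr9:120149492-120149741 on the plus strand, and Olig2 over chr16:91225300-91225549 on the plus strand, with a SOX match from 68 to 63.
Cnp: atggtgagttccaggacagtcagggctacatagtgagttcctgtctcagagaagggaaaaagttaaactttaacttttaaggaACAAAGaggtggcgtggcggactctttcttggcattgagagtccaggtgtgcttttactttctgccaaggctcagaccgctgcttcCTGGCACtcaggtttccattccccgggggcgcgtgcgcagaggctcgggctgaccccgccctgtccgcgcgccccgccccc
Mag: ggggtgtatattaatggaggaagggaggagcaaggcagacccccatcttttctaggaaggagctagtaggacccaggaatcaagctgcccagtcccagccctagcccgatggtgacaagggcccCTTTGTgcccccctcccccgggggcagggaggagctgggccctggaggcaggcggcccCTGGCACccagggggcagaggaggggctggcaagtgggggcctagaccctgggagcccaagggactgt
Mog: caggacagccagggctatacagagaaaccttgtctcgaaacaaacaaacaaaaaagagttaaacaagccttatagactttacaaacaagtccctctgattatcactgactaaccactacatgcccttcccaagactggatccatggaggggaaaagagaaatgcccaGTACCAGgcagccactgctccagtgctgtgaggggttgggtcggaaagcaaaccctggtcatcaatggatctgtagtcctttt
Mobp: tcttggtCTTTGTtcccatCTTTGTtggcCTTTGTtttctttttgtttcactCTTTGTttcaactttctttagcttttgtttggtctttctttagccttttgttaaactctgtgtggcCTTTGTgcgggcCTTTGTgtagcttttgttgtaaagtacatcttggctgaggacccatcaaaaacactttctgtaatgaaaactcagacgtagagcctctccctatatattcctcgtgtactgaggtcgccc
Olig2: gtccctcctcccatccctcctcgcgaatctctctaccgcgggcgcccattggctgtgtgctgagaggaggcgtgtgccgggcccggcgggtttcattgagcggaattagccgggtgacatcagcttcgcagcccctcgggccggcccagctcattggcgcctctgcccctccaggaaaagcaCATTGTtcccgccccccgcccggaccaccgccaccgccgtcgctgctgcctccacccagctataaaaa

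Beside these windows, Cnp, an enzyme of non-compact myelin, measured 11.56 and 11.76 in threat and 12.51 and 12.25 in control (difference -0.72). Mag, an adhesion protein of the innermost myelin layer, measured 8.12 and 8.06 in threat and 9.31 and 8.80 in control (-0.97). Mog, on the outer surface of myelin, measured 7.07 and 7.17 in threat and 8.42 and 7.80 in control (-0.99). In each of these the groups did not overlap. The 11 myelin genes with a window but no MYRF match had differences from -1.31 to -0.03 with a median of -0.90, a range that encloses the 3 genes with a match.

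Other genes of the pathway were counted from lists of signals, of cofactors, and of inhibitory, timing and other factors. Of 25 genes of signals that act upstream of the factors, 6 were lower and 4 higher without overlap (18.8% and 26.2% of all genes), and 3 were lower and 0 higher at an unadjusted p under 0.05 (5.76% and 4.9% of all genes). The median was -0.03, and it came to 0.07 without control pool 2, 0.04 without threat pool 1 and -0.09 without control pool 1 or threat pool 2. Jag1, a Notch ligand, measured 6.05 and 6.69 in threat and 6.80 and 7.31 in control, and its difference of -0.68 was -0.43 if control pool 2 was left out and -0.37 if threat pool 1 was. Erbb3, the neuregulin receptor of oligodendroglia, measured 6.03 and 6.35 in threat and 7.01 and 6.61 in control. Fgfr2 differed by -0.37. Gpr37, a receptor of myelinating cells, differed by -0.26, with -0.03 without control pool 1 and -0.50 without control pool 2. All 4 were lower without overlap.

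Of 20 cofactors and chromatin proteins, 6 were lower and 6 higher without overlap (18.8% and 26.2% of all genes), and 1 was lower and 0 higher at an unadjusted p under 0.05 (5.76% and 4.9% of all genes). The median was -0.03 and ran from -0.07 to 0.03 with a pool left out. Sox2, a factor of neural progenitors and astrocytes that is also present in precursors, measured 9.60 and 9.92 in threat and 10.31 and 10.20 in control, a difference of -0.49. Tcf12, a partner of basic helix-loop-helix factors, differed by -0.36, with -0.19 without control pool 2 and -0.22 without threat pool 1. St18 differed by -0.33, and leaving out control pool 1 or 2 gave -0.14 or -0.52. The threat pools of St18 did not exceed the Bacillus maximum. Thrb, a thyroid hormone receptor, differed by 0.33 with overlapping pools, and by 0.14 without control pool 1 or threat pool 2 and 0.51 without either of the others. A list of 14 inhibitory, timing and other factors held, among others, the Id, Hes, Sox5 and Sox6 genes. Of these 14 genes, 0 were lower and 2 higher without overlap (18.8% and 26.2% of all genes). At an unadjusted p under 0.05, 0 were lower and 1 higher (5.76% and 4.9% of all genes). The median was -0.05 and ran from -0.10 to 0.03 with a pool left out. Sox5, which holds precursors back from maturing, measured 8.002 and 8.11 in threat and 7.84 and 7.62 in control, a difference of 0.33, with 0.21 without control pool 2. Hes5, Id3 and Zfp24 had overlapping pools. With a pool left out, Hes5 at -0.24 ran from -0.41 (without threat pool 1) to -0.07 (without threat pool 2), Id3 at -0.20 from -0.43 (without control pool 1) to 0.03 (without control pool 2), and Zfp24 at -0.16 from -0.33 (without control pool 2) to -0.0008 (without control pool 1). None of these lists had a gene past the adjusted test in limma.

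Markers of other cell types also lay lower in threat in part. Of all genes 44.3% lay below 0, and 18.8% were lower and 26.2% higher without overlap. Of 12 astrocyte markers 9 lay below 0, and 6 were lower and 1 higher without overlap. Their median of -0.12 came to -0.04 without threat pool 1 and -0.20 without threat pool 2, and their mean level was 10.16 and 10.35 in the threat pools, against 10.44 and 10.45 in the control pools. Of 12 mural and meningeal markers 11 lay below 0 (median -0.46), and 5 were lower and 0 higher without overlap. Their differences ran from -1.83 to 0.04. Their mean level was 7.81 and 8.48 in threat and 8.33 and 9.16 in control. The median of that list ran from -0.92 without control pool 1 to -0.04 without control pool 2. The mural and meningeal mean was lower in pool 1 than in pool 2 of each group. Of the 18 myelin genes, 14 were likewise lower in threat pool 1 than in threat pool 2 (median -0.17). All 18, however, were higher in control pool 1 than in control pool 2. Of 9 endothelial markers 8 lay below 0 (median -0.29), and 5 were lower and 0 higher without overlap. Their differences ran from -1.08 to 0.06. Their mean level was 7.00 and 7.38 in threat and 7.33 and 7.75 in control. Their median ran from -0.47 to -0.08 with a pool left out. Of 9 microglial markers 7 lay below 0 (median -0.09), and 3 were lower and 0 higher without overlap. Their mean level was 8.95 and 9.08 in threat and 9.18 and 9.08 in control. Of 12 neuronal markers 9 lay below 0 (median -0.03), and 5 were lower and 2 higher without overlap. Their mean level was 11.47 and 11.46 in threat and 11.52 and 11.52 in control. The part of these cells in the values of the factors was not tested.

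The genes with the pattern most like that of a factor were named by the root mean square difference of the 4 values, each centred on its own mean, over 11930 bright genes. With 4 pools and many genes, close matches are common. For Olig1, the brightest member, the nearest were Defa31, Nuf2, Adamts4, Cd82 and Erdr1 (0.03 to 0.07 log2 units), and Sox10 was the 58th. For Sox10 they were Efs, Neurl2, Ttc30a1, Snx22 and Sox4 (0.02 to 0.03). Among the bright factors Nkx2-2 stood nearest to Sox10 at 0.11, as the 661st gene, followed by Olig1 at 0.12, as the 932nd.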

How the data were processed

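Total RNA of prefrontal cortex, pooled from 5 mice, was hybridised to each of the 4 arrays. The authors deposited log2 expression, with 1 value for each probe set on each array. RMA, which as usually run corrects background, equalises the distribution of the arrays and summarises probes, is named in the submitters' processing notes. The sources used here do not give its version, settings or filters. Detection calls were not used, and the number of arrays limits the precision.

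The 64 control probe sets were left out. Threat was compared with control by lmFit and eBayes of limma 3.58.1 under R 4.3.3 on the values as deposited (2-sided, Benjamini-Hochberg adjustment over 45037 probe sets, 2 residual degrees of freedom), and the fit was tested on simulated data. An exact permutation test of 2 against 2 pools cannot give a 2-sided p under 0.333, so none was used. The labels do not say whether pools came from separate cages or days, so p-values measure the spread between pools only. For each probe set, eBayes moderates that spread with the spread of all probe sets, and so do the SE and interval. Each gene was read by the brightest of its probe sets, that is the one with the highest mean. All 10 factors were named. From each list of myelin, precursor, pathway, family and other-cell factor genes, the up to 4 with the largest difference were named. For markers of other cell types, and for genes of thalamus and habenula, only whole-list values were given. The genes set beside the promoter windows, and Snap25 and Slc17a7 as markers of the tissue, are exceptions. The members, lists and motifs were chosen with earlier results of these data known. Symbols came from the platform annotation. Promoter windows came from RefSeq (GRCm38.p6). Alternatives were the pool number as a block, cyclic loess, median centring, an intensity trend, bright probe sets alone, no probe sets ending in _x_at or _s_at, an average over all probe sets of a gene, and each pool left out in turn.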

Additional observations from a re-analysis of the deposited data

How the results depend on the processing

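No member probe set and no probe set of the whole table passed an adjusted p of 0.05 under any of the alternatives that refit the data. The number of member probe sets lower at an unadjusted p under 0.05 was 2, 3 with cyclic loess, and 1 to 4 with a pool left out (1 without control pool 1, 4 without control pool 2). The number of factors lower without overlap was 3, and 3 to 6 of 9 with a pool left out, where 29.5% to 34.8% of all genes were lower without overlap. Their median difference of -0.20 ran from -0.37 to -0.07 with a pool left out, and came to -0.25 with cyclic loess and -0.17 with median centring. Myrf, Sox10, Olig1, Olig2 and Nkx6-2 kept their direction in every alternative that could be fitted, but many of these could not have turned it. The block and the intensity trend cannot change a difference in this balanced design. Keeping bright probe sets alone, or dropping those ending in _x_at or _s_at, leaves the values of the kept probe sets as they were. Averaging changes nothing for Myrf, Olig1, Olig2 and Nkx6-2, which have a single probe set each. Leaving out a pool cannot turn Myrf, Sox10 or Nkx6-2, whose pools did not overlap. With all 4 pools, the adjusted p of Myrf in limma ran from 0.273 to 0.493 over the alternatives. With a pool left out, the difference ran from -0.15 to 0.32 for Sox8, from -0.15 to 0.082 for Nkx2-2, from -0.13 to 0.26 for Zfp536 and from -0.27 to 0.15 for Tcf7l2, and each of these 4 turned its sign without control pool 1. Nkx2-2 and Tcf7l2 also turned without threat pool 1, and Sox8 and Zfp536 without threat pool 2. The cause of these turns was not tested. Tcf7l2 and Nkx6-2 have no bright probe set and so no value in that alternative. With the pool number as a replicate block, 2 member probe sets were lower at an unadjusted p under 0.05 and 0 passed the adjusted test in limma. Same-numbered pools of the 2 groups deviated together over all probe sets (correlation 0.33, and 0.44 over bright ones). Among the factors, however, control pool 1 lay above control pool 2 in 7 of 9 genes. Threat pool 1 lay below threat pool 2 in 8 of 9. In any case, 2 pairs and no statement in the labels do not make the numbers a pairing.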

Other observations

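Relatives of the factors within their gene families lay lower in threat in part. Of 14 measured relatives, 9 lay below 0 (44.3% of all genes), and 6 were lower and 3 higher without overlap (18.8% and 26.2% of all genes). At an unadjusted p under 0.05, 3 were lower and 0 higher (5.76% and 4.9% of all genes). The median was -0.08, and 3 of the 14 did not exceed the Bacillus maximum of 4.25 in any pool. Nkx2-9 measured 6.63 and 6.53 in threat and 7.11 and 7.00 in control, a difference of -0.48 without overlap. Tcf7l1, a relative of Tcf7l2, Zfp217 and Nkx2-5 differed by -0.29, -0.29 and -0.25, also without overlap. The 2 threat values of Zfp217 were identical (5.06), as were those of Nkx2-5 (4.90), which gives that group an SD of 0. Identical threat values occurred in 278 of the 45037 probe sets. The probe sets of Zfp217 and Nkx2-5 were not bright. The difference of Nkx2-5 came to -0.07 without control pool 1 and -0.43 without control pool 2.

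Of 24 transcription factors of other brain cells, 7 were lower and 1 higher without overlap (18.8% and 26.2% of all genes), and 4 were lower and 0 higher at an unadjusted p under 0.05 (5.76% and 4.9% of all genes). The median was -0.05, with -0.11 without control pool 1. Tbr1, a factor of deep cortical neurons, measured 8.53 and 8.62 in threat and 9.22 and 8.997 in control, a difference of -0.53, which is of the size of that of Myrf. Sall1, a factor of microglia, differed by -0.42 and Foxj1, of ciliated ependyma, by -0.47, both without overlap. The threat pools of Foxj1 did not exceed the Bacillus maximum, so the size of its difference is uncertain. Tbx18, of vessel walls and meninges, differed by -0.60 with overlapping pools, and this came to -1.34 without control pool 1, -0.16 without threat pool 1 and -1.05 without threat pool 2, and turned to 0.13 without control pool 2.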
